A study of Mus musculus with 18 samples.

Results

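The genes described here encode the constitutive proteasome of the mouse retina after experimental retinal detachment. They were chosen by name alone. Every probe set whose single gene symbol was Psma, Psmb, Psmc or Psmd followed by a number was taken, Psmb8, Psmb9 and Psmb10 were left out, and each gene was represented by the probe set with the highest mean over the 18 arrays. This gave 35 of the 12393 genes measured, from 64 of the 22626 probe sets tested. Of the 35, 15 belong to the core (Psma1 to Psma8 and Psmb1 to Psmb7) and 20 to the regulatory cap (Psmc1 to Psmc6 and Psmd1 to Psmd14).

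Retinas of Balb/cJ mice were detached by a subretinal injection of 1 uL of saline, or of 1 uL of 10 uM INS37217 in saline. INS37217, also called denufosol, activates the P2Y2 receptor and was studied for faster reattachment of the retina. Retinas were collected 2 h, 24 h and 7 d after the injection, which gave 6 groups with 3 arrays each: saline 2 h, saline 24 h, saline 7 d, INS37217 2 h, INS37217 24 h and INS37217 7 d. Each array was hybridised with RNA pooled from more than 5 retinas, so each value is an average over animals and over all cell types of the tissue. Every group had a detached retina and no retina without injection was analysed here. The age of the mice was not stated. The tissue was checked with 10 measured rod genes of a list of 12, whose mean log2 signal was 11.58 to 12.23 in the 6 groups.

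The proteasome is the protease that breaks down proteins tagged with ubiquitin. Its core is a barrel of alpha and beta subunits, with the cutting sites on Psmb5, Psmb6 and Psmb7 inside the barrel. The cap sits on the end of the barrel: a ring of ATPases (Psmc genes) unfolds the substrate, and Psmd subunits receive ubiquitin chains and cut them off. Photoreceptors renew much of their protein continuously, and cells that lose proteasome activity are known to raise the genes of core and cap together through the transcription factor NFE2L1. In inflamed tissue, interferon induces Psmb8, Psmb9 and Psmb10, which replace the constitutive catalytic subunits.

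Signals are deposited RMA values in log2 units, in which a difference of 1 is a doubling. Differences between group means were tested with limma over all 22626 probe sets, and a gene was called where its Benjamini-Hochberg adjusted p was under 0.05. The fit was run without and with the replicate number as a block, because arrays with the same number deviated together. None of the 35 genes was called without the block in any comparison, so "rose" and "fell" stand for proteasome genes called with it. The fit with the block gives each replicate number a level of its own.

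The proteasome genes were low on the replicate 1 arrays. All 15 core genes and 18 of 20 cap genes were lower on the replicate 1 arrays than on the mean of replicates 2 and 3, by a median of -0.55 and -0.64, while the median over all probe sets was 0.01 and that over the 11312 above the median level was -0.17. Psma7, an alpha subunit, differed most (-1.34). Psmd3 (0.27) and Psmd11 (0.01), both of the cap lid, were not lower. The labels do not say what the numbers stand for. The SD of the signal over an array was 1.80 to 1.89 on the replicate 1 arrays and 1.91 to 2.00 on the others. The part of this narrower spread in the low proteasome values was not tested.

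On the scale of each gene's own mean over the 18 arrays, core and cap moved together from array to array. At saline 2 h the median core deviation was -0.48 on replicate 1, -0.15 on replicate 2 and -0.01 on replicate 3, and the median cap deviation was -0.60, -0.10 and 0.09. At saline 24 h the core stood at -0.23, 0.25 and 0.36 and the cap at -0.14, 0.29 and 0.36. At saline 7 d the core stood at -0.39, 0.37 and 0.31 and the cap at -0.55, 0.38 and 0.29. All 3 replicate numbers were thus higher at 24 h than at 2 h for both.

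The INS37217 arrays ran the same way. At 2 h the core values were -0.53, -0.04 and 0.04 and the cap values -0.40, -0.03 and 0.07. At 24 h they were -0.24, 0.32 and 0.31 for the core and -0.30, 0.26 and 0.32 for the cap. At 7 d the core gave -0.47, 0.27 and 0.30 and the cap -0.54, 0.25 and 0.31. The group means overlapped once the replicate 1 arrays were included: the core mean was -0.22 ± 0.24 (SD, n = 3) at saline 2 h and 0.13 ± 0.31 at saline 24 h.

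**Figure D1:**
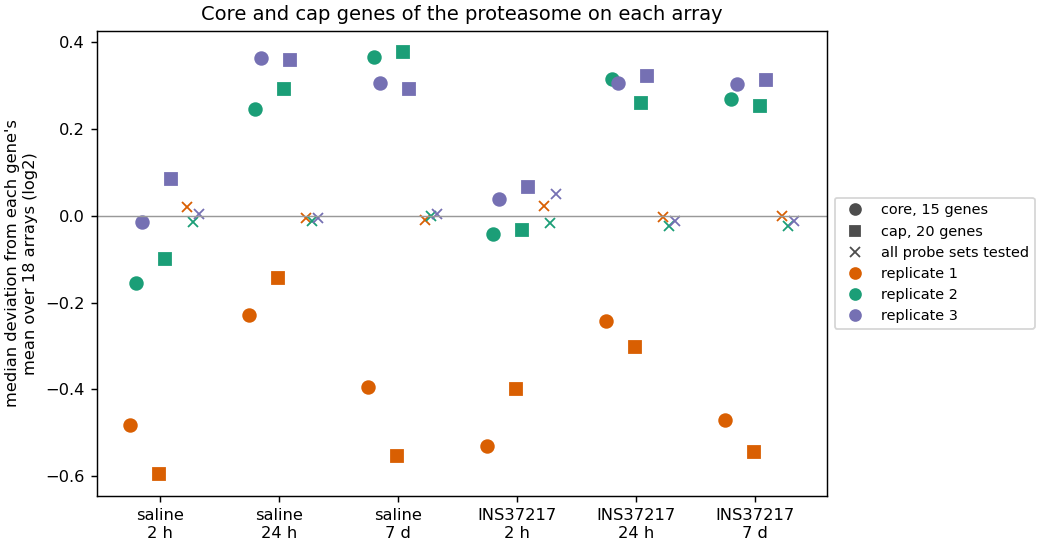
Median deviation (log2) of 15 core genes (circles), 20 cap genes (squares) and all 22626 probe sets (crosses) from each gene's own mean over 18 arrays, for every array; colours mark the replicate number. Circles and squares lie side by side, all replicate 1 arrays lie under 0, and the crosses stay near 0.

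The first comparison asks what changed in the detached retina between 2 h and 24 h after saline. Of the 35 genes, 32 were higher at 24 h, and the median difference was 0.36 for the core and 0.36 for the cap, against -0.04 over all probe sets and 0.05 over those above the median level. With the replicate block 24 of the 35 rose and 0 fell, where 16.1% of all probe sets and 23.5% of those above the median level were called higher. Without the block limma called 0 of the 35 (7.58% of all probe sets). At an unadjusted p under 0.05 there were 3, Psma4, Psmb7 and Psmd5, against a background of 19.7%. In 29 of the 35 (82.9%) all 3 replicate numbers were higher at 24 h, and in 26% of all probe sets. Within replicates 1, 2 and 3 the median over the 35 genes was 0.36, 0.38 and 0.29. With the block, the 24 became 10 when saline 2 h replicate 2 was left out, and on replicates 2 and 3 alone, without a block, 21 of 35 were called higher (15.2% of all probe sets).

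After INS37217, 31 of the 35 genes were higher at 24 h than at 2 h. The median difference was 0.28 for the core and 0.21 for the cap, and -0.04 over all probe sets. With the block 13 of 35 rose and 0 fell, and 11.6% of all probe sets and 16.3% of those above the median level were called higher. Without the block limma called 0 of 35 (6.52% of all probe sets). At an unadjusted p under 0.05 there were 4, against 16.5%, and on replicates 2 and 3 alone 12 were called higher, against 12.1%. In 65.7% of the 35 genes all 3 replicate numbers were higher, and in 22.6% of all probe sets. With the block the 13 became 7 without INS37217 2 h replicate 3. The saline and INS37217 arrays are separate, and 11 genes rose in both: 45.8% of the 24 in saline and 84.6% of the 13 after INS37217. Psma6 and Psmd2 were called after INS37217 and not in saline. For Psma6 this depended on the probe set. Another one (mean 9.18) rose in saline by 0.32 (limma adjusted p with the block = 0.013). After INS37217 it was higher by 0.24 and not called (0.067). The difference between the changes of both treatments was called for 0 of 35 genes with limma, with and without the block, and for 0 at an unadjusted p under 0.05. The background was 0.0575% without the block, 1.07% with it and 2.48% at the unadjusted p. All 3 counts were 0 also for the changes from 2 h to 7 d (background 0.0884%, 0.835% and 2.6%) and from 24 h to 7 d (0.0398%, 0.274% and 1.74%).

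**Figure D2:**
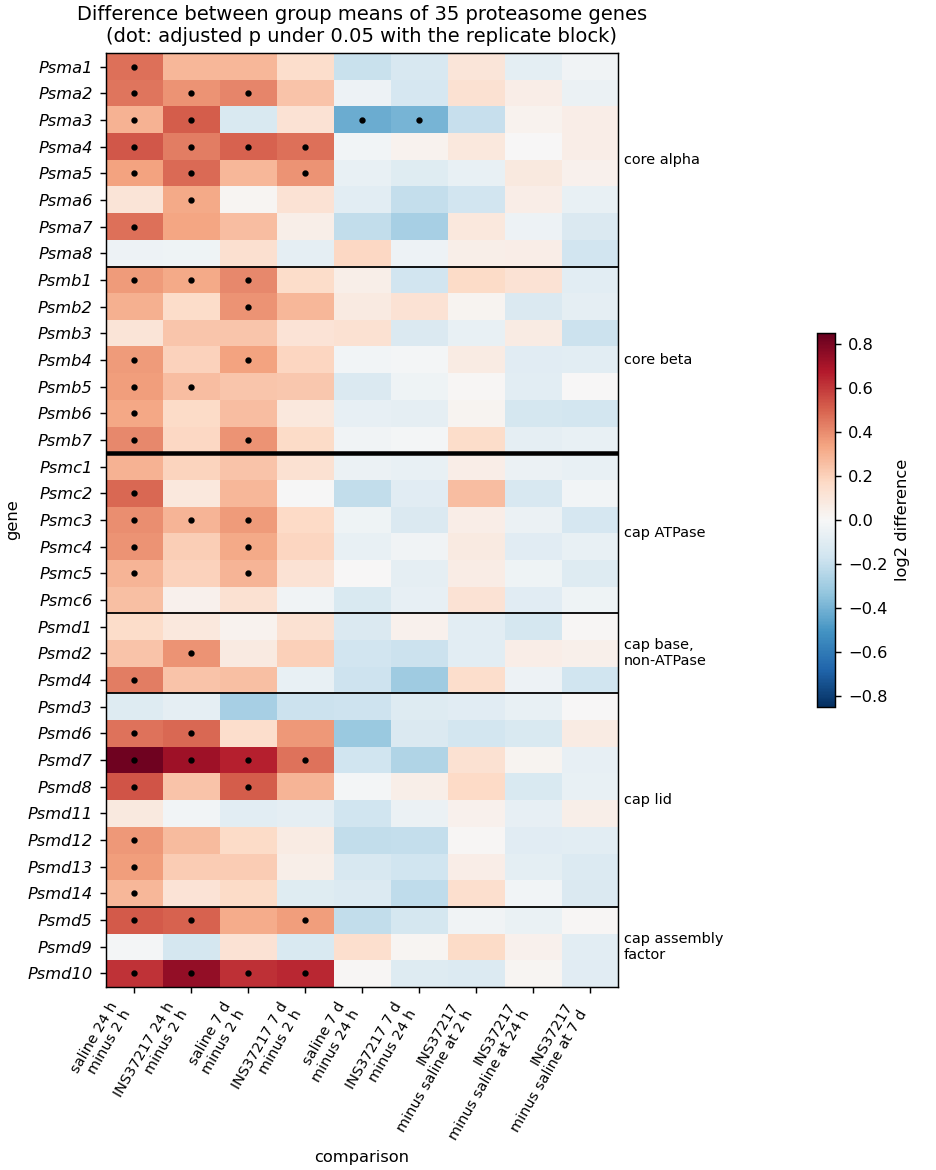
Difference between group means (log2, colour) of the 35 genes (rows, by class) in 9 comparisons (columns); a dot marks adjusted p under 0.05 with the replicate block. The dots lie in the comparisons of 24 h or 7 d with 2 h, apart from Psma3 between 7 d and 24 h, and the 3 columns of INS37217 against saline have none.

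Core and cap were close in most comparisons. The median core difference minus the median cap difference was -0.01 in saline and 0.07 after INS37217 between 24 h and 2 h, and its highest value over the 9 comparisons was 0.09 (saline, 7 d against 24 h). The SD of core minus cap between arrays of a group was 0.07. By replicate number core minus cap was -0.10, -0.04 and 0.04 in saline between 24 h and 2 h, with no common sign, and 0.10, 0.10 and 0.09 after INS37217, where the core median was the higher in each. Leaving out the 3 Psmd genes that are assembly factors rather than subunits, the cap median was 0.35 in saline and 0.21 after INS37217.

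Promoters are shown for 4 genes because proteasome genes are known to share control elements. RefSeq windows of the build GRCm38.p6 matched 28 of the 35 genes, and the 250 bases before each start were searched on both strands for TGACNNNGC, the core of the antioxidant response element that NFE2L1 and NFE2L2 bind, and for CCAAT. The windows of Psmb5 (chr14:54617996-54618245, minus strand), Psmb6 (chr11:70525107-70525356, plus strand) and Psmd9 (chr5:123227940-123228189, plus strand) hold TGACNNNGC, and that of Psmd10 (chrX:140956712-140956961, minus strand) holds CCAAT at 3 places. Sequences run 5′ to 3′ toward the start, with the motif (or its reverse complement) in capitals.
Psmb5: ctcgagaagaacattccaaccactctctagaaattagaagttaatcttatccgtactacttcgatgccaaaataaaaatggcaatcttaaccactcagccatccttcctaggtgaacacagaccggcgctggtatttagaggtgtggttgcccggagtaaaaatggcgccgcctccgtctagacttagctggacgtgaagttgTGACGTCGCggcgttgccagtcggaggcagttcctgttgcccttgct
Psmb6: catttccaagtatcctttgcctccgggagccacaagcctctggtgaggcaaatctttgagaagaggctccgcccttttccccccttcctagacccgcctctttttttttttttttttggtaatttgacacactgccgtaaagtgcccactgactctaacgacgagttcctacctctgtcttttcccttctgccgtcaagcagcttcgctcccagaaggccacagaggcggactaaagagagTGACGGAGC
Psmd9: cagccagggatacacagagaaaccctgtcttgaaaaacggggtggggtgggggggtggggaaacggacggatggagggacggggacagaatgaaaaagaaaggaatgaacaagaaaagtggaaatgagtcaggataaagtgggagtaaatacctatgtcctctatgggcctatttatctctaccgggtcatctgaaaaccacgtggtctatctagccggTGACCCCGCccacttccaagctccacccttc
Psmd10: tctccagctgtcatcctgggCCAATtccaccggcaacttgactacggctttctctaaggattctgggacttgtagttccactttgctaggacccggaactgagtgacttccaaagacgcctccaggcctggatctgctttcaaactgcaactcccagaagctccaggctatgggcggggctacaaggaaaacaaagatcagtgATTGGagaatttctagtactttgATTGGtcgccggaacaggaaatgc

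TGACNNNGC lay 47 to 39 bases before the start in Psmb5, 9 to 1 in Psmb6 and 31 to 23 in Psmd9. In all, 5 of the 28 promoters (17.9%) held it, against 11.5% of the promoters of 27025 genes. Of the 20 promoters of genes that rose in saline by 24 h, 3 held it (Psmb5, Psmb6 and Psmd12), and of the other 8, 2 did (Psmc6 and Psmd9). CCAAT was in 11 of 28 (39.3%) and in 37.5% of all genes. These are matches of letters and no binding was measured.

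The catalytic subunits Psmb5, Psmb6 and Psmb7 carry the chymotrypsin-like, caspase-like and trypsin-like sites, and all of them rose in saline. Psmb5 read 9.38, 9.57 and 9.78 on the saline 2 h arrays, 9.74, 9.92 and 10.14 at 24 h, and 9.44, 9.94 and 10.06 at 7 d. In each replicate number it was higher at 24 h than at 2 h, by 0.36, 0.35 and 0.36, although the groups overlapped by a small margin. The mean difference was 0.36 (SE 0.20, limma adjusted p = 0.37), or 1.28-fold, and with the block the SE was 0.09 and adjusted p = 0.0068. After INS37217 Psmb5 read 9.4, 9.62 and 9.73 at 2 h, 9.57, 9.93 and 10.04 at 24 h, and 9.41, 9.93 and 10.1 at 7 d. The 24 h change there was 0.26 (limma adjusted p = 0.62, with the block 0.049), and the replicate 1 array was again the lowest of its group at each time.

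Psmb6 read 9.4, 9.7 and 9.87 at saline 2 h, 9.71, 10.05 and 10.2 at 24 h, and 9.35, 10.26 and 10.14 at 7 d. Its 24 h change was 0.33 (SE 0.29, limma adjusted p = 0.59; with the block 0.032), with all 3 replicate numbers within 0.31 to 0.35. The INS37217 arrays read 9.32, 9.75 and 9.96, then 9.37, 10.05 and 10.1, then 9.17, 10.02 and 10.1, a 24 h change of 0.16 that was not called (limma adjusted p with the block = 0.32). Replicate 1 stayed between 9.17 and 9.71 on all 6 of its arrays.

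Psmb7 did not overlap between saline 2 h and 24 h. It read 10.35, 10.62 and 10.73 at 2 h, 10.89, 11.06 and 10.97 at 24 h, and 10.67, 11.13 and 11.04 at 7 d. The 24 h change was 0.41 (SE 0.14, limma adjusted p = 0.10; with the block 0.0021) and the 7 d change against 2 h was 0.38 (0.16; with the block 0.0045). After INS37217 the arrays read 10.56, 10.79 and 10.81 at 2 h, 10.77, 11.06 and 10.86 at 24 h, and 10.72, 11.03 and 10.9 at 7 d. The groups overlapped there, and the changes of 0.18 and 0.16 were not called (limma adjusted p with the block = 0.18 and 0.24).

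Of the other beta subunits, which build the inner rings of the barrel, Psmb1 and Psmb4 rose in saline by 24 h, each by 0.36 (limma adjusted p with the block = 0.014 and 0.012). Psmb1 also rose after INS37217 (0.32, 0.034). Psmb2 was higher by 0.30 and Psmb3 by 0.11 in saline, and neither passed (0.076 and 0.58 with the block). The other probe set of Psmb3 (mean 9.09) was higher by 0.33 at saline 24 h and not called (0.055). Against 2 h it rose by 0.37 at saline 7 d (0.042). The other probe set of Psmb4 (mean 8.32) was higher by 0.27 at saline 24 h and not called (0.3). In all, 5 of 7 beta genes rose in saline and 2 of 7 after INS37217. With the block 16.1% and 11.6% of all probe sets were called higher, and 23.5% and 16.3% of those above the median level. With so few genes, 2 of 7 is not told apart from these shares.

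The alpha subunits form the outer rings and gate the entry to the barrel. In saline 6 of 8 rose by 24 h, with a median of 0.40, and after INS37217 5 of 8 rose, with a median of 0.36. The shares called higher with the block were 16.1% and 11.6% of all probe sets, and 23.5% and 16.3% above the median level. Psma7 rose in saline (0.47, limma adjusted p with the block = 0.0072), but its other probe set was not called there (0.22, 0.11). Psma4 read 8.96, 9.43 and 9.26 at saline 2 h, 9.42, 9.87 and 9.94 at 24 h, and 9.4, 9.87 and 9.89 at 7 d. The 2 h and later groups overlapped only through replicate 1 of the later ones. Its change by 24 h was 0.53 (SE 0.19, limma adjusted p = 0.12; with the block 8.6e-05). Its INS37217 arrays read 9.02, 9.48 and 9.42, then 9.53, 9.83 and 9.87, then 9.51, 9.93 and 9.88, so that neither later group overlapped the 2 h group, and it was higher by 0.44 at 24 h and 0.47 at 7 d (limma adjusted p with the block = 0.00073 and 5e-04).

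Psma5 read 9.23, 9.43 and 9.5 at saline 2 h, 9.37, 9.78 and 10.04 at 24 h, and 9.3, 9.88 and 9.83 at 7 d. The INS37217 arrays gave 8.98, 9.39 and 9.61, then 9.64, 9.88 and 9.91, then 9.27, 9.8 and 10.05. The 24 h changes were 0.34 and 0.48 (limma adjusted p with the block = 0.017 and 0.0018), and the 2 h and 24 h groups overlapped in saline but not after INS37217. Another probe set of Psma5 (mean 8.99) was higher by 0.29 in saline and not called (limma adjusted p with the block = 0.055). After INS37217 that probe set rose by 0.66 (0.00017).

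Psma3 was the member that fell again. It read 9.95, 10.91 and 10.95 at saline 2 h, 10.41, 11.09 and 11.19 at 24 h, and 9.84, 10.88 and 10.71 at 7 d. With INS37217 the values were 9.89, 10.77 and 10.56, then 10.4, 11.22 and 11.15, then 9.91, 10.94 and 10.74. It rose by 0.29 and 0.52 by 24 h (limma adjusted p with the block = 0.024 and 0.00037) and fell by 0.42 and 0.39 from 24 h to 7 d (0.0076 and 0.01). On replicates 2 and 3 alone the fall was not called (limma adjusted p = 0.12 and 0.11). With the block it was lost without saline 24 h replicate 1 in saline, and without INS37217 24 h replicate 1 or INS37217 7 d replicate 1 or 3 after INS37217.

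Psma8, the alpha subunit of testis proteasomes, is not a constitutive subunit although the name rule takes it in. Its signal was between 4.21 and 4.92 on all 18 arrays and its mean of 4.46 was the only one of the 35 under the median level of all probe sets, 6.73. It was -0.04 in saline and -0.03 after INS37217 between 24 h and 2 h and was not called.

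The ATPases Psmc1 to Psmc6 form the ring that unfolds substrates. All 6 were higher in all 3 replicate numbers in saline at 24 h, and 4 rose: Psmc2 by 0.49, Psmc3 by 0.40, Psmc4 by 0.38 and Psmc5 by 0.29 (limma adjusted p with the block = 0.0024, 0.0053, 0.014 and 0.026). Psmc1 was higher by 0.29 and Psmc6 by 0.25 and did not pass (0.076 and 0.078). Of these 6, Psmc3 rose after INS37217 (0.29, 0.043), where their median was 0.19. With the block 16.1% of all probe sets in saline and 11.6% after INS37217 were called higher. Above the median level the shares were 23.5% and 16.3%, so that Psmc3 alone is near the background. In saline 26% of all probe sets were higher in all 3 replicate numbers. Psmc2 had the largest gap between the changes of both treatments among 34 genes (-0.40, without Psma8), and that difference was not called. Both the rise and the gap of Psmc2 depended on the probe set. A second one of similar level (mean 9.93) was higher by 0.24 in saline and 0.19 after INS37217. It was called in neither (limma adjusted p with the block = 0.053 and 0.15). The rise of Psmc4 also depended on the probe set. Its other one (mean 8.52) was higher by 0.11 in saline and not called (0.67).

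The base of the cap also holds Psmd1 and Psmd2, its scaffold subunits, and Psmd4, a receptor for ubiquitin chains. Psmd4 read 9.36, 9.92 and 10.11 at saline 2 h, 9.95, 10.31 and 10.43 at 24 h, and 9.43, 10.31 and 10.42 at 7 d. Its INS37217 arrays read 9.63, 10 and 10.21, then 9.83, 10.28 and 10.45, then 9.11, 10.18 and 10.36. The groups overlapped, and replicate 1 was the lowest in each. It rose by 0.43 in saline by 24 h (SE 0.33, limma adjusted p = 0.52; with the block 0.013) and was higher by 0.24 after INS37217, which did not pass (0.18). Psmd2 rose after INS37217 (0.38, limma adjusted p with the block = 0.011) and Psmd1 in neither (0.15 and 0.09).

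The lid removes ubiquitin before the substrate enters the core, and 6 of its 8 genes rose in saline by 24 h. With the block 16.1% of all probe sets and 23.5% of those above the median level were called higher there. Psmd14, the enzyme that cuts the chain off, read 9.86, 10.07 and 10.14 at saline 2 h, 10.16, 10.39 and 10.36 at 24 h, and 9.94, 10.25 and 10.37 at 7 d. The 2 h and 24 h groups did not overlap, and it rose by 0.28 (SE 0.15, limma adjusted p = 0.34; with the block 0.026). With INS37217 the values were 10.08, 10.2 and 10.22, then 10.08, 10.4 and 10.37, then 9.74, 10.24 and 10.22, and the change of 0.12 by 24 h was not called (0.39 with the block).

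Psmd7, the lid partner of Psmd14, had the largest saline change of the 35 genes. It read 6.97, 8.07 and 8.25 at 2 h, 8.05, 8.8 and 8.93 at 24 h, and 7.45, 8.95 and 8.88 at 7 d. By replicate number it was higher at 24 h by 1.08, 0.73 and 0.68, and the 24 h value of replicate 1 lay among the 2 h values. The change was 0.83 (SE 0.51, limma adjusted p = 0.41), or 1.78-fold, and with the block the SE was 0.12 and adjusted p = 1.8e-05. After INS37217 it read 7.23, 8.18 and 8.27, then 7.84, 8.9 and 9.1, then 7.41, 8.84 and 8.82, a 24 h change of 0.72 (limma adjusted p with the block = 0.00011).

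Psmd8, another lid subunit, read 8.97, 9.55 and 9.68 at saline 2 h, 9.6, 10.11 and 10.09 at 24 h, and 9.46, 10.25 and 10.04 at 7 d. After INS37217 it read 9.35, 9.69 and 9.66, then 9.51, 10.07 and 9.84, then 9.33, 10.09 and 10.15. It rose by 0.53 and 0.52 in saline by 24 h and 7 d (limma adjusted p with the block = 0.00066 and 0.0011), and after INS37217 the 24 h change of 0.24 did not pass (0.11). Psmd6, Psmd12 and Psmd13 also rose in saline by 24 h, by 0.46, 0.37 and 0.35 (0.016, 0.018 and 0.028), and Psmd6 rose after INS37217 (0.49, 0.014). Psmd6 and Psmd13 each have a second probe set above the median level that was not called in saline. These differed by 0.03 and 0.04 (limma adjusted p with the block = 0.85 and 0.86), and that of Psmd6 rose after INS37217 (0.42, 0.012). Psmd3 and Psmd11, the lid genes whose replicate 1 arrays were not low, were not called: Psmd3 differed by -0.11 in saline and -0.07 after INS37217, and Psmd11 by 0.08 and -0.02.

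Psmd5, Psmd9 and Psmd10 help to assemble the base of the cap and leave before the cap is finished. Psmd10, also called gankyrin, read 5.96, 6.31 and 6.91 at saline 2 h, 6.14, 7.24 and 7.64 at 24 h, and 6.03, 7.71 and 7.3 at 7 d. After INS37217 it read 5.76, 6.71 and 6.36, then 6.19, 7.38 and 7.5, then 5.89, 7.46 and 7.4. Replicate 1 stayed between 5.76 and 6.19, and most of the change lay in replicates 2 and 3: in saline 0.18, 0.93 and 0.73 by number at 24 h. It rose by 0.61 in saline and 0.75 after INS37217 by 24 h (SE 0.53 without the block; limma adjusted p with the block = 0.016 and 0.0054), or 1.53-fold and 1.68-fold.

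Psmd5 had a similar change on all 3 replicate numbers, 0.55, 0.53 and 0.49 in saline. It read 7.91, 8.08 and 8.22 at saline 2 h, 8.46, 8.61 and 8.71 at 24 h, and 7.9, 8.65 and 8.61 at 7 d, and 7.82, 8.02 and 8.28, then 8.29, 8.65 and 8.68, then 7.86, 8.62 and 8.7 after INS37217. The 2 h and 24 h groups did not overlap in either treatment, but after INS37217 they nearly touched (8.28 and 8.29). Psmd5 rose by 0.52 and 0.50 (limma adjusted p with the block = 0.0023 and 0.0041). Psmd9 was not called (-0.02 and -0.15, 0.93 and 0.42 with the block). Its promoter is 1 of the 5 with TGACNNNGC, and a link between motif and change was not tested.

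**Figure D3:**
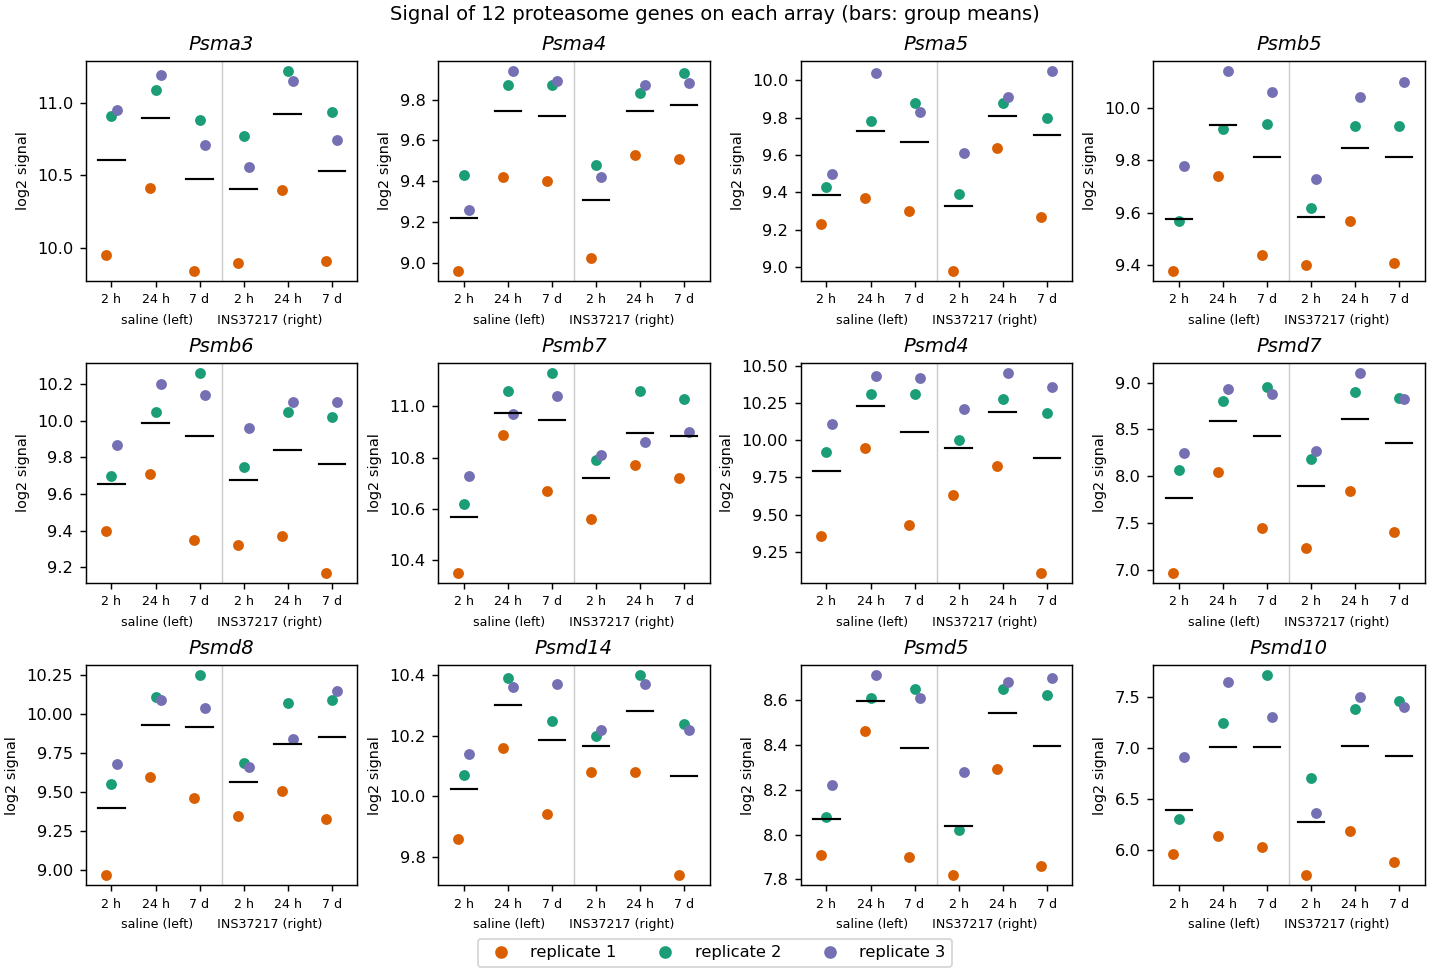
Log2 signal of 12 proteasome genes on each of 18 arrays, by group; points are arrays, coloured by replicate number, and bars are group means (n = 3); each gene has its own axis. In Psmd7 and Psmd10 the replicate 1 arrays lie far under the others. In Psmd5 the 2 h and 24 h arrays do not overlap within a treatment, after INS37217 only just (8.28 and 8.29).

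The design text places reattachment by 24 h and the end of misfolding by 7 d, and the comparison of 7 d with 2 h asks which genes differed by then. In saline 32 of 35 genes were higher at 7 d than at 2 h, with a median of 0.28 for the core and 0.23 for the cap and -0.01 over all probe sets. With the block 12 rose, 6 in the core and 6 in the cap, and 12.3% of all probe sets and 17.2% of those above the median level were called higher. Without it limma called 0 (5.44%), and 2 reached an unadjusted p under 0.05 (background 16.5%). The changes were uneven over the replicate numbers, with medians of 0.06, 0.49 and 0.28, and on replicates 2 and 3 alone 20 of 35 were called higher (14.4% of all probe sets). With the block the 12 became 5 without saline 2 h replicate 2 or saline 7 d replicate 2. The source name of saline 7 d replicate 2 gives 2 h where its title gives 7 d. It correlated at 0.9598 to 0.9941 with the other saline 7 d arrays and at 0.9472 to 0.979 with the saline 2 h arrays, and it was kept at 7 d.

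Psmd7 (0.66), Psmd10 (0.62), Psmd8 (0.52) and Psma4 (0.50) had the largest changes between saline 2 h and 7 d (limma adjusted p with the block = 3e-04, 0.019, 0.0011 and 0.00019). After INS37217 27 of 35 were higher at 7 d, with medians of 0.16 and 0.12 for core and cap and -0.04 over all probe sets. With the block 5 rose (Psma4, Psma5, Psmd5, Psmd7 and Psmd10), and 9.21% of all probe sets and 12.1% of those above the median level were called higher, so that 5 of 35 is near the background. Limma without the block called 0 of 35 (4.91%), and 1 reached an unadjusted p under 0.05 (background 14.8%). On replicates 2 and 3 alone 12 were called higher (11.9%). On replicate 1 the median was -0.09 and on the others 0.30 and 0.20. The 5 became 2 without INS37217 7 d replicate 2 or 3.

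Between 24 h and 7 d the medians were -0.04 for the core and -0.13 for the cap in saline and -0.10 and -0.11 after INS37217, with 28 and 30 of the 35 genes lower. With the block Psma3 fell in each and none of the 35 rose, where 4.65% and 4.07% of all probe sets were called lower and 2.72% and 3.59% higher. Another probe set of Psmd11 (mean 8.30) was also lower after INS37217, by -0.41 (limma adjusted p with the block = 0.02). The Psmd11 probe set used was not called there (-0.05, 0.89). Limma without the block called 0 of the 35 in each (1.31% and 2.21% of all probe sets), and 0 reached an unadjusted p under 0.05 (8.33% and 8.15%). In saline the median was -0.30 on replicate 1, 0.04 on replicate 2 and -0.06 on replicate 3, lowest on replicate 1. These comparisons share their 24 h arrays with those against 2 h.

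The comparison of INS37217 with saline at the same time asks whether the drug changed these genes. The medians were 0.05 for the core and 0.06 for the cap at 2 h, 0 and -0.06 at 24 h, and -0.06 and -0.06 at 7 d, and over all probe sets 0.01, 0 and -0.02. No gene of the 35 was called at any time by limma, with or without the block, and none reached an unadjusted p under 0.05 without it (3.53%, 3.13% and 2.06% of all probe sets at 2 h, 24 h and 7 d). These counts of 0 are near the background: 0.128%, 0.119% and 0.15% of all probe sets were called without the block, and with it 1.38%, 0.614% and 0.636% were called higher and 0.38%, 0.274% and 0.00442% lower.

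How large a drug effect these arrays leave room for is given by the 95% intervals. Over the 34 genes without Psma8 they ran from -1.24 to 1.31 at 2 h, from -1.27 to 1.18 at 24 h and from -1.34 to 1.10 at 7 d. With the block they ran from -0.50 to 0.50, from -0.42 to 0.40 and from -0.48 to 0.36. The differences farthest from 0 were 0.26 for Psmc2 at 2 h, -0.15 for Psmd1 at 24 h and -0.18 for Psmb3 at 7 d.

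**Figure D4:**
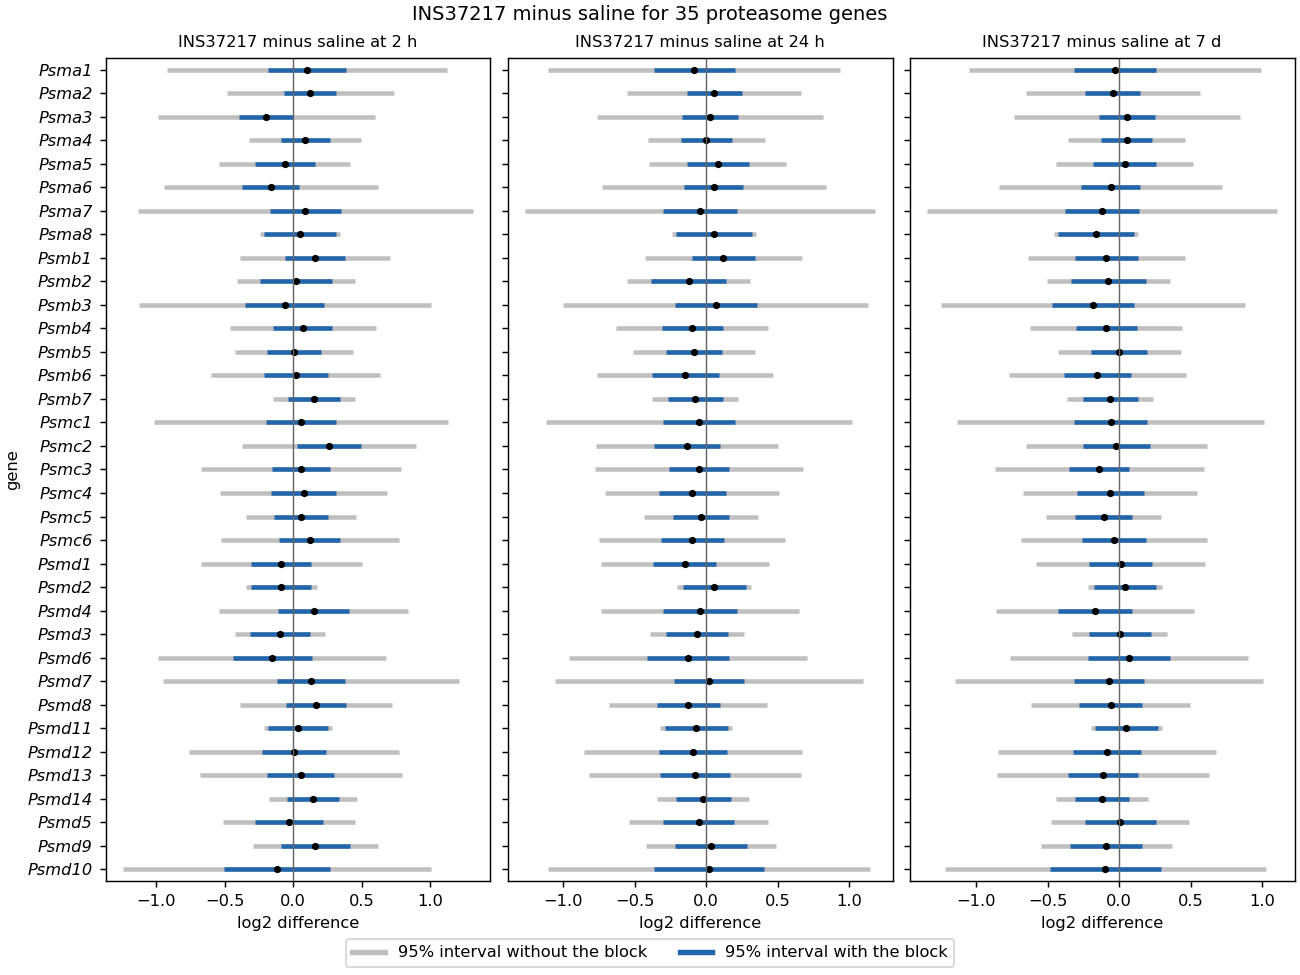
INS37217 minus saline (log2, points) for the 35 genes at 2 h, 24 h and 7 d, with 95% intervals without (grey) and with (blue) the replicate block. The points lie between -0.20 and 0.26, no gene was called, and the grey intervals reach from -1.34 to 1.31 without Psma8.

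The immunoproteasome counterparts were called without the block. Psmb8, which replaces Psmb5, read 6.21, 6.24 and 6.1 at saline 2 h, 7.25, 7.49 and 7.81 at 24 h, and 6.61, 7.04 and 7.08 at 7 d. After INS37217 it read 6.38, 6.27 and 6.21, then 7.92, 8.13 and 8.3, then 6.73, 7.14 and 7.39. The 2 h, 24 h and 7 d groups did not overlap in either treatment. The 24 h changes were 1.33 in saline and 1.83 after INS37217 (SE 0.18, limma adjusted p = 0.00019 and 6e-06).

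Psmb9, which replaces Psmb6, read 6.23, 6.08 and 6.46 at saline 2 h, 7.81, 8.23 and 8.44 at 24 h and 6.46, 6.64 and 6.8 at 7 d, and 6.14, 6.06 and 6.38, then 8.47, 8.45 and 8.51, then 6.68, 6.61 and 6.98 after INS37217. Its 24 h changes were 1.90 and 2.28 (limma adjusted p = 1.8e-06 and 1.5e-07), and it fell by 1.53 and 1.72 from 24 h to 7 d (5.9e-05 and 9.3e-06). Psmb10, which replaces Psmb7, changed by 1.08 and 1.31 by 24 h (0.0016 and 0.00025). It read 6.94, 7.09 and 7.16 at saline 2 h and 7.87, 8.14 and 8.41 at 24 h, and 7.01, 7.23 and 7.42, then 8.25, 8.65 and 8.69 after INS37217.

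Each counterpart changed more than its constitutive subunit in every replicate number. The difference of the changes by 24 h in saline was 0.98 (SE 0.16) for Psmb8 against Psmb5, 1.57 (SE 0.14) for Psmb9 against Psmb6 and 0.67 (SE 0.15) for Psmb10 against Psmb7. After INS37217 it was 1.57, 2.12 and 1.13. The signal of the counterpart minus that of its subunit did not overlap between 2 h and 24 h in any of the 6 tests, and the exact two-sided permutation test gave p = 0.1 in each (0.1 after Benjamini-Hochberg adjustment over 6), the smallest that 3 against 3 arrays allow. Psmb8 was also higher after INS37217 than after saline at 24 h, by 0.60 (limma adjusted p = 0.56, with the block 0.027).

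**Figure D5:**
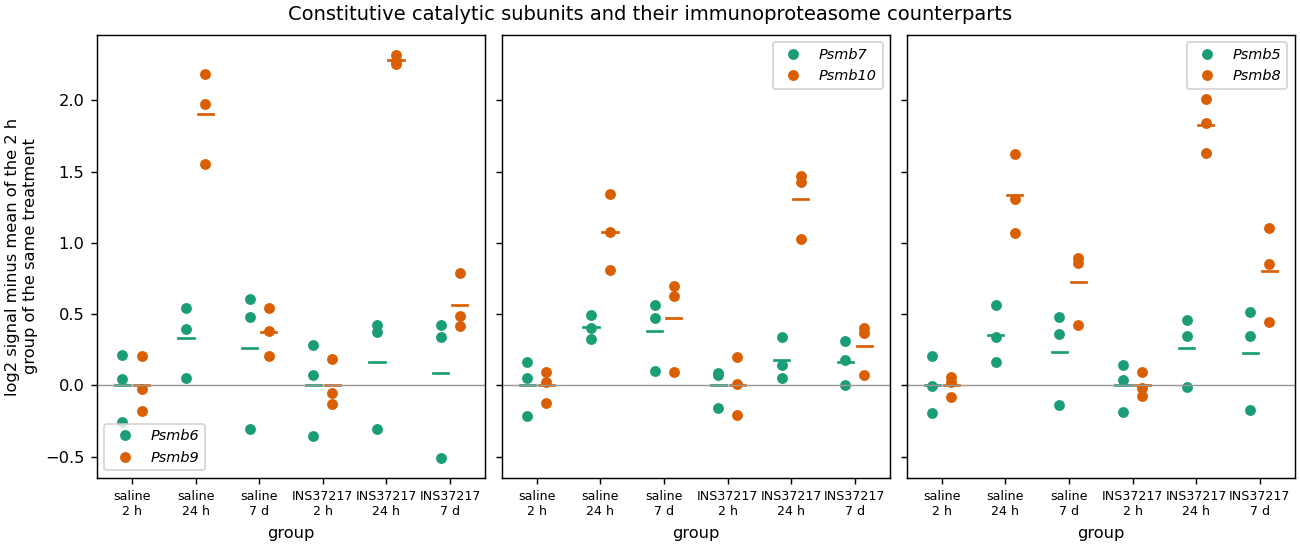
Log2 signal minus the 2 h mean of the same treatment for each constitutive catalytic subunit (green) and its immunoproteasome counterpart (orange); points are arrays and bars group means (n = 3). At 24 h the counterparts stand 1.08 to 2.28 above their 2 h mean and the constitutive subunits 0.16 to 0.41.

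Among 29 measured genes of the wider pathway, limma without the block called 5 higher in saline by 24 h and 6 after INS37217, and none lower. Of all probe sets 4.65% and 3.23% were called higher and 2.93% and 3.3% lower. Beside the immunoproteasome genes these were Psme1, a subunit of the activator that opens the core without ubiquitin (0.69 and 0.84, adjusted p = 0.046 and 0.018), Nfe2l2, a transcription factor of the oxidative stress response (0.86 and 0.57, 0.0027 and 0.038), and after INS37217 Rad23b, which carries ubiquitinated proteins to the cap (0.60, 0.0083). Nfe2l2 read 6.41, 6.75 and 6.64 at saline 2 h and 7.55, 7.59 and 7.23 at 24 h, without overlap. Nfe2l1 itself was -0.17 and -0.07 and was not called (0.69 and 0.91; with the block 0.16 and 0.59). Its activity depends on processing of the protein, which arrays do not measure.

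Pomp, the chaperone that matures the core, was higher by 0.34 and 0.38 and passed only with the block (limma adjusted p = 0.51 and 0.54, with the block 0.012 and 0.007). Of the 5 assembly genes it alone passed with the block in saline, while Psmg2 passed too after INS37217 (0.52, 0.0097). Of 6 genes of proteins bound to the proteasome, 0 passed in saline, and Uchl5, a deubiquitinase, passed with the block after INS37217 (0.36, 0.016). Ubqln4, a shuttle for ubiquitinated proteins, was lower with the block, by -0.36 and -0.26 (0.006 and 0.049). Of all probe sets 16.1% in saline and 11.6% after INS37217 were called higher by 24 h with the block. The shares called lower were 12.9% and 10.5%. Psme2 was not analysed here.

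Probe sets of the same gene did not always agree. Of the 29 other probe sets of the 35 genes, 15 lay above the median level. In saline by 24 h 12 of these were higher and 2 were called higher with the block, and of the 14 at lower levels 0 were. The background with the block was 16.1% of all probe sets and 23.5% of those above the median level. The 2 of 15 do not exceed it, unlike the 24 of the 35 probe sets used. Psmd4 has a second probe set that rose with it (0.48, limma adjusted p with the block = 0.00059) and another that did not (-0.23, 0.13), which was lower by -0.38 at saline 7 d (0.019). The second probe set of Psmd9 was lower by -0.35 in saline and -0.46 after INS37217 by 24 h (0.017 and 0.003), where the one used was not called. The second and the last probe set of Psmd7 lay under the median level and were not called.

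The signals of cell type markers and a measure of RNA quality also differed between these groups. Between 2 h and 24 h the 10 rod genes were lower by a median of -0.36 in saline and -0.60 after INS37217 (5 and 7 called without the block, 0 of 10 higher), and the 6 cone genes by -0.54 and -0.98. The 11 genes of microglia and macrophages were higher by a median of 0.49 and 0.42 (4 and 5 called higher, 1 lower in each), with a list mean of 6.31 at saline 2 h, 6.68 at 24 h and 7.41 at 7 d. In a whole retina, fewer cells of a type and less RNA per cell cannot be told apart. The actin signal at the 3′ end minus that at the 5′ end, which grows as RNA degrades, was 1.04 ± 0.09 (SD, n = 3) at saline 2 h, 0.75 ± 0.04 at INS37217 2 h and 0.60 to 0.65 in the 4 later groups.

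Lens genes stood lower in the saline 2 h group as well, with a mean over 8 genes of 11.37 against 11.99 to 12.27 in the other groups. After INS37217 the lens mean was 11.99 at 2 h and 12.01 at 24 h. The part of the cell makeup and of RNA quality in the changes of the proteasome genes was not tested.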

How the data were processed

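Per the submitters' processing notes the authors summarised the arrays with RMA, and the deposited values are on a log2 scale (2.83 to 14.15). The version of RMA was not stated. Titles gave the groups. The source name, a second label, mentions no drug for 8 of 9 INS37217 arrays and puts saline 7 d replicate 2 at 2 h. The 64 Affymetrix controls were left out, and 22626 probe sets entered lmFit and eBayes of limma 3.58.1 (R 4.3.3), with 1 mean for each of 6 groups, all 18 arrays, Benjamini-Hochberg adjustment over all probe sets and a threshold of 0.05. No filter on low values was used.

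Symbols came from the platform's annotation: 20380 probe sets had 1 gene, 691 several and 1555 none. With group means taken out, the 45 array pairs that share a replicate number correlated at 0.426 to 0.921, and 17 of 18 arrays were closest on average to those of their own number, so the fit with the replicate number as a block stands beside the one without it. The pairing comes from the data and the numbers in the titles.

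Shown in full were Psmb5, Psmb6, Psmb7, Psmd4 and Psmd14 and, for each comparison, the up to 4 most changed genes in each direction that were called with or without the block. Always named were Psmb8, Psmb9, Psmb10, Psme1, Nfe2l1 and Pomp. The genes and lists were chosen with earlier results of these data known. The fit was tested on simulated data with a replicate effect alike in every group, which is what the block assumes. Replicate effects that differ between groups were not simulated. The design text calls the 3 arrays of a group biological replicates, and this number limits the precision.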

Additional observations from a re-analysis of the deposited data

How the results depend on the processing

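Without the replicate block no proteasome gene was called in any of 12 comparisons, and this held with equal array medians, with eBayes with trend and robust, on only probe sets above the median level and on only the arrays compared. With the replicate block, which pairs the arrays by number, the counts were 24 (saline) and 13 (INS37217) for 24 h against 2 h, 12 and 5 for 7 d against 2 h, 1 and 1 for 7 d against 24 h, and 0 in the other 6. Quantile normalization again gave 2, 1, 2 and 1 in the first 4 of these, and averaging a gene's probe sets gave 1, called lower, in both INS37217 comparisons with 2 h. Only replicates 2 and 3 gave 21 and 12 at 24 h and 20 and 12 at 7 d. A block on these, added after the data were seen, gave 22, 15, 21 and 14. With 1 array left out and no block the count was 0 in 89 of 90 fits and 1 in saline 7 d against 2 h (range 0 to 1, without saline 7 d replicate 1). Core minus cap moved by more than 1 SD (0.07) in 2 of 99 values, both with 1 array left out: it ranged from -0.0858 to 0.0417 for INS37217 against saline at 2 h and from 0.0225 to 0.1308 for saline 7 d against 2 h. The cause of these shifts was not tested. With the block and 1 array left out the counts were 10 to 23, 7 to 16, 5 to 14 and 2 to 9 in the same 4 comparisons, and with the block after quantile normalization 24, 14, 18 and 9.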
